A study of Mus musculus with 20 samples.

Results

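Active chromatin of the fasted wild-type liver was described from 2 histone marks profiled in the same 2 livers. H3K27ac (acetylated lysine 27 of histone H3) and H3K4me1 (monomethylated lysine 4) were measured by ChIP-seq, chromatin immunoprecipitation followed by sequencing, in flash-frozen whole liver of 9-week-old male C57BL/6 mice of genotype WT after a 24-hour fast. Members were the 4 WT libraries of these marks among the 20 samples of the series, 16 of which have a peak list. A region was a run of overlapping peaks (1 base or more) that held a peak of each liver, and regions of one mark were divided by whether they overlapped a region of the other. This gave 31275 H3K27ac regions and 45294 H3K4me1 regions. The other genotypes of the series, used for comparison only, were Cpt2 L-/- (deletion of a carnitine palmitoyltransferase of mitochondria, in the liver per the series' design), Ppara -/- (deletion of a nuclear receptor for fatty acids) and Cpt2 L-/- ; Ppara -/-. They shared strain, sex, age and fast with WT, and each had 2 livers per mark. The sources used here do not name the driver of the Cpt2 deletion. H3K9ac was profiled in 1 WT liver and was used as an independent readout.

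H3K4me1 marks enhancers and the flanks of promoters, and it can be present before a gene is active. H3K27ac is laid down by the acetyltransferases p300 and CBP at active promoters and enhancers, so enhancers with both marks are commonly called active and those with H3K4me1 alone primed. H3K9ac is a further acetylation of active chromatin, strongest around starts of transcription. In the fasted liver, hepatocytes draw on enhancers bound by the hepatocyte factors, the glucocorticoid receptor and Ppara to switch toward fatty acid oxidation, ketone production and gluconeogenesis.

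The results below turn in part on gene starts. Of the acetylated starts, 7.27% lay under H3K4me1 at the first base, and 52.5% had no H3K4me1 in the acetylated region. The stretches shown next are the 250 bases before the start of 6 genes, 5′ to 3′ on the gene's strand, from RefSeq (build GRCm38.p6), with each CpG in capitals. Pnrc1, a nuclear receptor coactivator (chr4:33248788-33249037 (- strand)), Wtap, a subunit of the RNA adenosine methyltransferase (chr17:12992544-12992793 (- strand)), and Abcd3, a peroxisomal transporter of fatty acids (chr3:121815303-121815552 (- strand)), have the strongest acetylated regions without H3K4me1 among starts with no protein-coding gene body in the stretch shown.

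Pnrc1: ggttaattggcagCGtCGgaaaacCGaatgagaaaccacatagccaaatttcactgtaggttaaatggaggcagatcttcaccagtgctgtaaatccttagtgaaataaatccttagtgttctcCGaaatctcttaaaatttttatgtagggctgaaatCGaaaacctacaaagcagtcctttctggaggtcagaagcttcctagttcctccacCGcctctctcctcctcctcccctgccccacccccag
Wtap: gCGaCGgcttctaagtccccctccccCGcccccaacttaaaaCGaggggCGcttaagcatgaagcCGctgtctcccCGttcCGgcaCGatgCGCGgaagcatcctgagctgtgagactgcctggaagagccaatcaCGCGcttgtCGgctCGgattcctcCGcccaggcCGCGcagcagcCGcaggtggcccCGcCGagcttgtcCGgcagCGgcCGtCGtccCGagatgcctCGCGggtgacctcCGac
Abcd3: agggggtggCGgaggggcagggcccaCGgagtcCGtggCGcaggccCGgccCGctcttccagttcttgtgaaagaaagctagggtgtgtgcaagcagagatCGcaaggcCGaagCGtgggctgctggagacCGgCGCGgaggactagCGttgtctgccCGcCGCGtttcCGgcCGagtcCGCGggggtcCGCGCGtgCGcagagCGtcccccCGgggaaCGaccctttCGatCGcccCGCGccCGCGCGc

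F10, coagulation factor X (chr8:13037058-13037307 (+ strand)), Itih1, a heavy chain of the inter-alpha inhibitors of plasma (chr14:30943290-30943539 (- strand)), and Agxt, an aminotransferase of peroxisomes (chr1:93134990-93135239 (+ strand)), are the liver genes of the fixed lists with the strongest regions in which the start itself lay under both marks, chosen by the same criterion.

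F10: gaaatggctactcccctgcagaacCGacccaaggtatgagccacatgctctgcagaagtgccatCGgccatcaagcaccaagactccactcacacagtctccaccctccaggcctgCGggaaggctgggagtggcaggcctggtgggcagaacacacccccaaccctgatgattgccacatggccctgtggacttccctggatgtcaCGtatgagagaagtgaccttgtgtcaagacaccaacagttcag
Itih1: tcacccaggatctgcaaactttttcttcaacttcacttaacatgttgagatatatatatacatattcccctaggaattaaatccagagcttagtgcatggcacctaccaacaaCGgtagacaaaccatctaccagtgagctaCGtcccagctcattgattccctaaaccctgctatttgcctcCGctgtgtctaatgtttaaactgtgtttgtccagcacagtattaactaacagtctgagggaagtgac
Agxt: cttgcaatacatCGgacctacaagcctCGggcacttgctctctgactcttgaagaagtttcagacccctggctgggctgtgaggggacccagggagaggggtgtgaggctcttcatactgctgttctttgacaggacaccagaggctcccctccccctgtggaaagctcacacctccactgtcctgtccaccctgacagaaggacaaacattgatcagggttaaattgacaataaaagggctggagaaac

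The stretches before Wtap and Abcd3 hold 29 and 34 CpGs, and those before F10, Itih1 and Agxt hold 4, 3 and 2. Pnrc1, which has the strongest acetylation of all genes, is an exception in its group with 6. Fold enrichments of the acetylated regions at these starts, in liver 1 and liver 2, were 50.3 and 64.7 at Pnrc1, 37.2 and 52.4 at Wtap, and 38.2 and 49.5 at Abcd3. They were 16.6 and 26.6 at F10, 19.5 and 20.4 at Itih1, and 16.7 and 20.6 at Agxt. The groups do not overlap in either liver. Both were chosen by the strength of their regions, the first from all genes and the second from the fixed lists only. No difference between the classes can be read from these folds or from the CpG counts of these stretches.

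Both livers gave lists of like size. H3K27ac lists held 46140 peaks in liver 1 and 45151 in liver 2, covering 47.8 and 47.1 Mb, and H3K4me1 lists held 66862 and 69158 peaks covering 52.5 and 53.2 Mb. Of the peaks, 79.2% and 81.2% of H3K27ac and 79.3% and 76.9% of H3K4me1 overlapped a peak of the other liver. Peaks found in a single liver were narrow and weak: their median width was 298 and 285 bases for H3K27ac, against 732 and 739 bases for shared peaks. Strength was ranked as the percentile of a peak's fold within its own list, and a region took the highest peak of each liver and the mean of both percentiles. Spearman's rho between the percentiles of the 2 livers was 0.77 over 31275 H3K27ac regions and 0.62 over 45294 H3K4me1 regions, a description over regions that were chosen for being called in both. Folds were not compared between marks. Regions of 1 liver are not replicates of it, so classes are compared as descriptions with no p, and the values of each liver stand beside them.

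Of the 31275 H3K27ac regions, 20119 (64.3%) overlapped an H3K4me1 region and 11156 did not. Of the 45294 H3K4me1 regions, 22635 (49.97%) overlapped an H3K27ac region and 22659 did not. Within each liver alone, the shares were 64.4% in liver 1 and 67.5% in liver 2 for H3K27ac, and 47.2% and 46.5% for H3K4me1. Joined together, the regions with both marks formed 17309 stretches of the genome. Acetylated regions covered 49.0 Mb, of which 57.5% of the bases lay under H3K4me1. Much of the division depends on the requirement of a call in both livers: of the 11156 regions with H3K27ac only, 8121 had no H3K4me1 peak in either liver, 2888 had one in 1 liver, and 147 met peaks of both livers that did not form a region at that place. Of the 22659 regions with H3K4me1 only, 17480 had no H3K27ac peak in either liver.

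Regions with both marks were wide. The median width of H3K27ac regions was 1246 bases with H3K4me1 and 762 bases without it, and that of H3K4me1 regions 1077 bases with H3K27ac and 628 without. Among H3K27ac regions, 31.4% of those with both marks and 7.51% of the others reached 2 kb. A wide region has more bases on which to meet the other mark, and the share of width in the division was not tested. In the single lists the difference between medians was 255 bases in liver 1 and 220 bases in liver 2, against 484 bases between merged regions, so its size depends on how the livers were merged.

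The 2 kinds of acetylated region lay at different places. Of the H3K27ac regions without H3K4me1, 44.8% had their middle no more than 1000 bases from where a protein-coding gene body begins or stops (a gene end here), against 16.5% of those with both marks. Gene bodies, away from their ends, held 34.6% of the former and 59.4% of the latter. H3K4me1 regions were seldom at gene ends, 11.8% of those with H3K27ac and 7.56% of those without. Their main place was inside gene bodies, with 60.6% and 71.1%. Regions more than 100 kb from any gene made up 2.22% to 2.79% of the 4 classes.

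**Figure D1:**
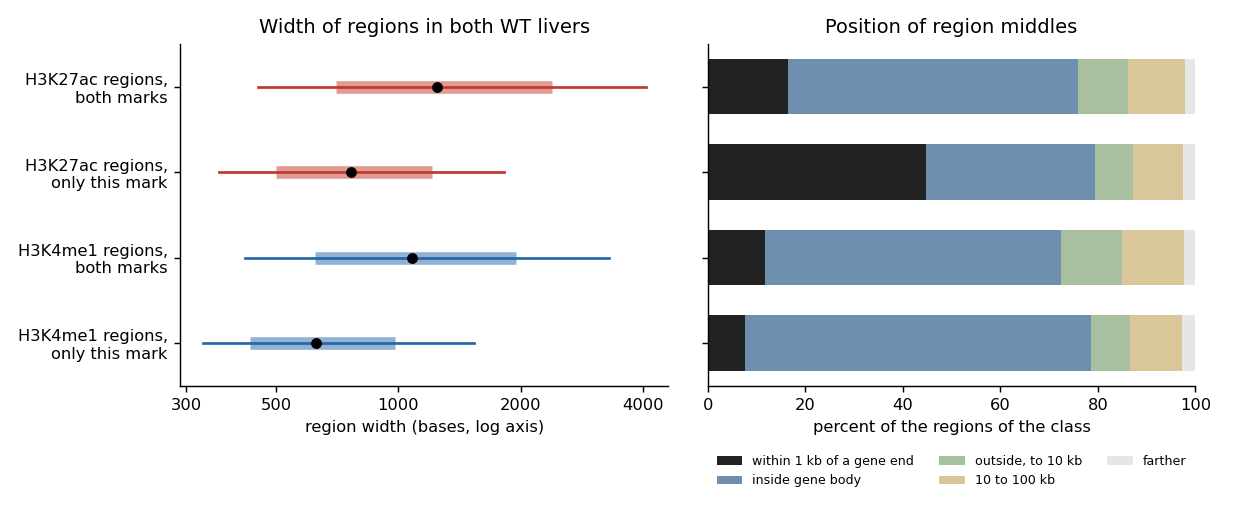
Width (left, bases on a log axis; point, median; thick bar, middle 50%; thin line, 10th to 90th percentile) and position of region middles (right, percent of the class) for regions called in both WT livers. Regions with both marks are wider in each mark, with medians of 1246 and 1077 bases, and 44.8% of the regions with H3K27ac only lie within 1 kb of a gene end.

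Most acetylated regions at gene ends lay at starts. Of the 4993 regions with H3K27ac only near a gene end, 77.9% were within 1000 bases of a start and 3.42% were near the other end alone, and the rest belonged to genes with no listed start. For the 3319 with both marks the shares were 68.1% and 13.9%. Over the 21262 starts in the promoter table, 37.8% lay in an H3K27ac region, 4.90% in an H3K4me1 region and 2.75% in both. Among the 8031 acetylated starts, 7.27% lay under H3K4me1 at the first base. The share was 33.1% at 1400 bases into the gene and 20.05% at 1300 bases before the start, so that H3K4me1 stood on both flanks and most on the side of the gene. H3K9ac, from its 1 library, covered 88.4% of these starts and 91.8% at 200 bases into the gene.

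**Figure D2:**
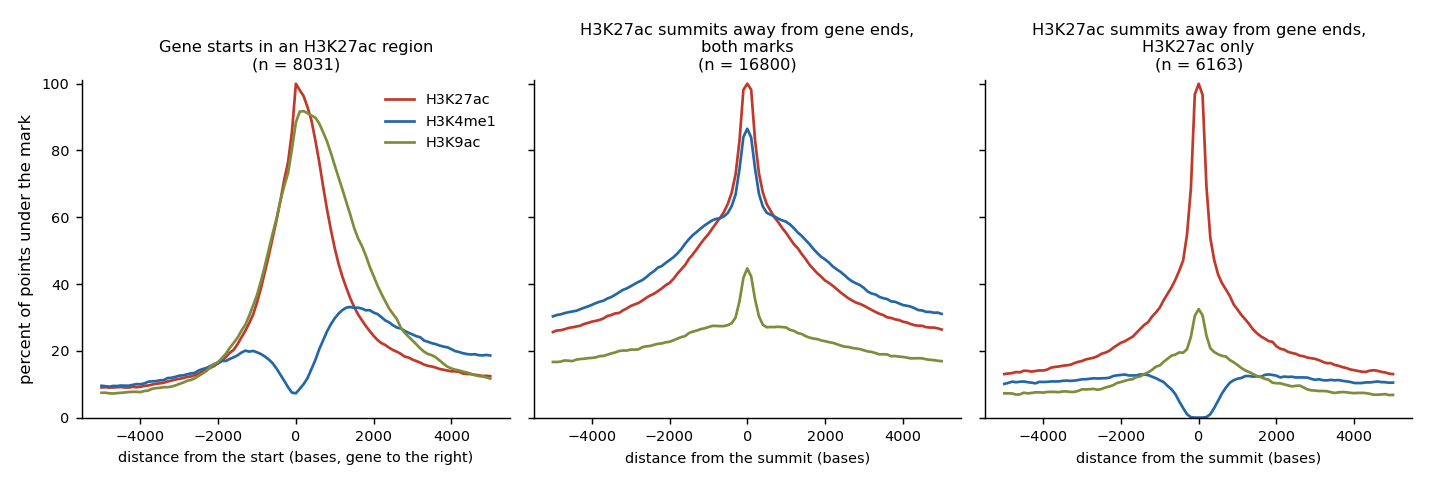
Percent of points under H3K27ac, H3K4me1 (regions in both WT livers) and H3K9ac (1 library) by distance in bases from acetylated gene starts (left; gene to the right) and from H3K27ac summits away from gene ends with both marks (middle) or with H3K27ac only (right). H3K4me1 is lowest at acetylated starts, 7.27%, and reaches 33.1% at 1400 bases into the gene, while it covers 86.5% of the summits in the middle panel; the value of 0 at the summits on the right is set by the class.

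Sequence at the starts differed between the classes. The ratio of observed to expected CpG in the 300-base promoter, 250 bases before to 50 after the start, had a median of 0.82 over 4216 starts acetylated with no H3K4me1 in the region. It was 0.78 over 3231 acetylated starts with H3K4me1 elsewhere in the region, 0.41 over 584 starts under both marks, 0.33 over 12774 starts under neither and 0.57 over all 21262. Starts under H3K4me1 without H3K27ac, 457 in number, had 0.63. The middle 50% of the starts under both marks ran from 0.20 to 0.69, and that of acetylated starts with no H3K4me1 from 0.67 to 0.95. The 2 ranges overlap little. The letters GGGCGG, the core of the GC box, were found on either strand in 65.7% of acetylated promoters with no H3K4me1, in 70.4% of those with H3K4me1 elsewhere in the region, in 46.1% of those under both marks and in 46.2% of all. In the same order, the letters CCAAT, on either strand, were in 36.9%, 36.4%, 29.6% and 38.2%, and TATAAA, the TATA box, in 6.45%, 6.62%, 9.08% and 12.6%. TGTTTAC, a core recognised by forkhead factors, was in 2.61%, 3.10%, 2.57% and 3.01%. CAAAGTCCA, a site of Hnf4a, was in 0.285%, 0.650%, 1.03% and 0.452%. At 584 starts the shares for the rarest letters rest on few promoters, and a match is a description of the letters and not of binding.

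Acetylation was about as strong with H3K4me1 as without it, until position was taken into account. The median percentile of H3K27ac was 61.4 with both marks and 58.6 without H3K4me1, a difference of 2.82 points that compares with 5.53 in liver 1 and 2.19 in liver 2 alone. Near gene ends, where acetylation was strongest, the medians were 80.7 and 74.7. Away from them they were 57.8 and 47.8. Median folds away from gene ends were 7.68 and 7.92 in livers 1 and 2 with both marks, and 6.88 and 6.81 with H3K27ac only. Near gene ends the folds were 10.5 and 14.2 with both marks, and 9.00 and 12.4 with H3K27ac only. Both livers gave the same order within each position. Regions with both marks were also wider there, with medians of 1594 against 902 bases near gene ends and 1171 against 665 bases away from them. Spearman's rho between width and percentile was 0.65 over the 31275 H3K27ac regions, and the part of width in these differences was not tested.

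H3K4me1 was stronger where it met acetylation. Its median percentile was 67.9 with H3K27ac and 50.04 without it, a difference of 17.9 points that was 20.9 in liver 1 and 20.2 in liver 2 alone. It differed by position: the medians were 69.6 and 49.8 away from gene ends, and 55.8 and 52.6 near them. The share of H3K4me1 regions with H3K27ac was 37.1% in the second and the third decile by strength (each a set of equal size) and 85.0% in the strongest decile. Since strong regions were also wide (median width 2405 bases in the strongest decile and 506 bases in the weakest), the summit alone was examined as well. The summit, the position of the highest peak, lay under H3K27ac in 33.2% of the third decile and in 80.9% of the strongest, the same order as for whole regions.

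For acetylation the reverse depended on position and on the measure. Over all positions, from 61.7% to 67.8% of H3K27ac regions met H3K4me1 in each decile by strength, with 62.9% in the strongest. Near gene ends the share was 33.3% in the weakest decile and 47.0% in the strongest. Away from them it was 66.5% in the weakest, 85.9% in the ninth and 80.0% in the strongest. Strong regions were also wider at both positions, and the part of width in this was not tested. By the summit and over all positions, the share under H3K4me1 was 57.7% in the weakest decile, 50.5% in the eighth, 40.7% in the ninth and 22.3% in the strongest. Of the 3127 regions in the strongest decile, 1622 were near a gene end, and 8.51% of their summits were under H3K4me1. Away from gene ends the summit share was 62.8% in the weakest decile, 69.9% in the eighth, 64.0% in the ninth and 37.1% in the strongest. In that strongest decile, H3K4me1 met any base of 47.0% of the regions near gene ends and of 80.0% elsewhere, shares that include the regions with it on the summit. Over the 20119 H3K27ac regions with both marks, Spearman's rho between the percentiles of the 2 marks was 0.20, a weak relation among regions of the same 2 livers.

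**Figure D3:**
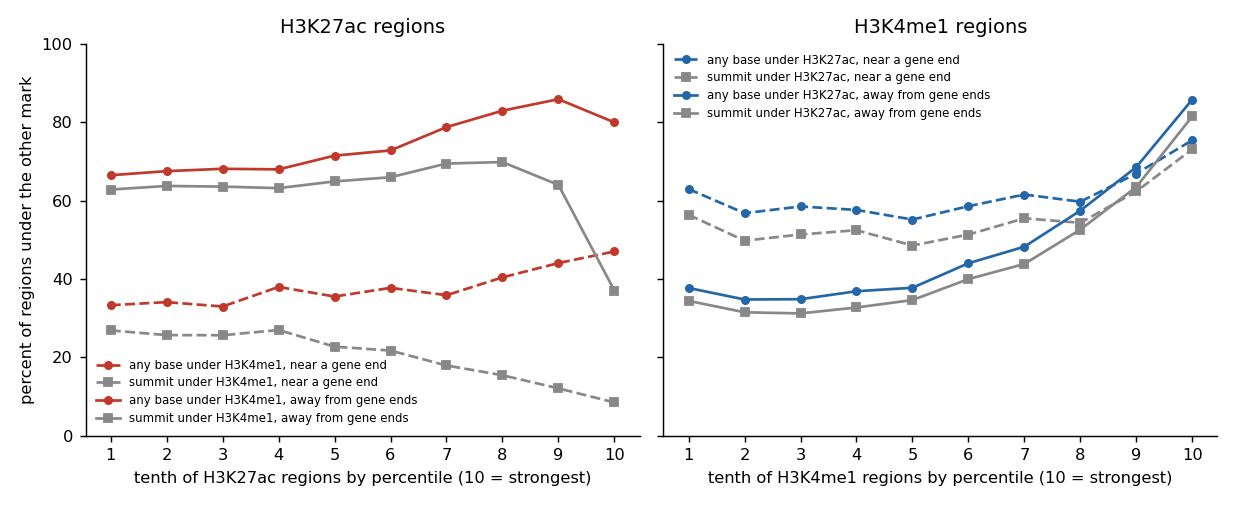
Percent of H3K27ac regions under H3K4me1 (left) and of H3K4me1 regions under H3K27ac (right) by decile of strength within the mark, near gene ends (dashed) and away from them (solid); circles count any base of the region and squares its summit. In the strongest H3K27ac decile 47.0% and 80.0% of the regions meet H3K4me1, and 8.51% and 37.1% of the summits do.

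H3K9ac, which took no part in the classes, was found at 59.6% of H3K27ac regions with both marks and at 61.1% of those without H3K4me1. These like totals hid a split by position. Near gene ends the shares were 90.1% and 92.5%, and away from them 53.6% and 35.6%. For H3K4me1 regions, 59.3% with H3K27ac and 20.4% without it overlapped H3K9ac. It also followed strength, from 37.9% of the weakest to 98.5% of the strongest decile of H3K27ac regions. There was 1 H3K9ac library, so these shares have no replicate check.

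Genes were ranked by their strongest H3K27ac region, and the first 25 are described here. Pnrc1 had the highest fold of each list, in a region of 3644 bases (mm10, chromosome 4, 33246052 to 33249695) that covers an end of the gene. Glt1d1, a gene related to glycosyltransferases, had folds of 43.5 in liver 1 and 53.3 in liver 2 in a region of 10756 bases that also reaches Slc15a4. Prkce, the epsilon form of protein kinase C, had 40.0 and 59.3, and the kinase gene Dyrk2 had 39.0 and 59.5. Usp40, of the deubiquitinase family, had 47.6 and 50.6, and Ap3s1, an adaptor subunit for vesicle transport, had 46.2 and 48.5 in a region that also reaches Atg12. The other genes of the 25 were, among transcriptional and chromatin regulators, Zmiz1, Irf2, Bicral, Zfp395, Rad54l2 and Hmgb1. Peroxisomes were represented by Pex14, a docking protein for protein import (41.6 and 47.4), and Abcd3. Signalling genes were Ppp4r3a, Cdk17, Sbf2 and N4bp2. Wtap and Larp1 act on RNA, Rdx and Mtss1 at the cell cortex, and Gga1 and Dnajc3 in the Golgi and the endoplasmic reticulum. Zadh2, whose region also reaches Tshz1, completes the list.

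Folds at the 25 genes ran from 34.6 to 50.3 in liver 1, with a median of 39.1, and from 45.1 to 64.7 in liver 2, with a median of 51.3. Liver 2 was the higher at 25 of 25 genes. Over all H3K27ac regions the median folds were 7.83 in liver 1 and 8.43 in liver 2. The ranking of genes rests on averaged percentiles, as for all regions, and not on averaged folds. All 25 regions overlapped H3K9ac, as did 98.5% of the strongest decile of H3K27ac regions. H3K4me1 was absent as a region from 9 of the 25, those of Pnrc1, Dyrk2, Cdk17, Wtap, Sbf2, Abcd3, Hmgb1, N4bp2 and Larp1, and 6 of these 9 had no H3K4me1 peak in either liver. Over all H3K27ac regions the share without H3K4me1 was 35.7%, so the 25 were like the rest in this. Within 1000 bases of a gene end lay 13 of the 25, beside 1622 of the 3127 regions of the strongest decile. The ranking was sensitive to the liver, with 13 of the 25 among the first 25 in liver 1 alone and 12 in liver 2 alone.

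**Figure D4:**
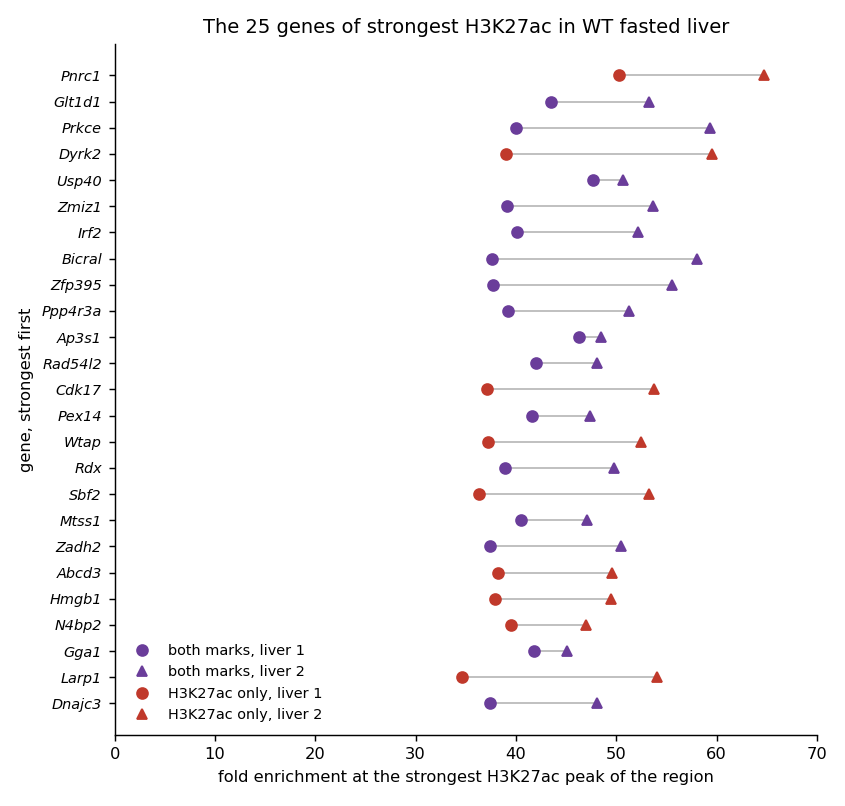
Fold enrichment (horizontal, authors' column 7) of the strongest H3K27ac region of each of the 25 highest-ranked genes in liver 1 (circles) and liver 2 (triangles); purple, region with both marks; red, H3K27ac only. Liver 2 lies to the right of liver 1 at all 25 genes. Of the 25 regions 9 are without H3K4me1, beside 35.7% of all H3K27ac regions.

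Ranking genes by the bases in their H3K27ac regions kept 2 of the 25, Mtss1 and Zmiz1, among its first 25 genes. Mtss1 came first, with 107920 bases in 18 regions, all 18 with H3K4me1. Tns1, a tensin of cell adhesions, had 91832 bases in 34 regions, and Rxra, the partner of Ppara and other nuclear receptors, 87963 bases in 25 regions, of which 24 had H3K4me1. Zmiz1 had 84778 bases and Shb, a signalling adaptor, 84221. Septin9, Rbpms, Zbtb16, Scp2 and Tex2 followed, with 69740 to 55007 bases. Zbtb16 is a target of the glucocorticoid receptor, and Scp2 encodes a carrier of sterols and branched fatty acids in peroxisomes. These are long genes, from 86875 bases at Rxra to 214317 at Tns1, and length gives more room. Of the 500 genes highest by strength, 100 were among the 500 highest by bases, 20% of each list. Each list held 500 of the 10001 genes with an assigned region. Over these 10001 genes, Spearman's rho between the percentile of the strongest region and the bases was 0.62, so the 2 rankings were related although their first 25 genes differed.

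The strongest regions of a class were as follows. Among regions with H3K27ac only, the 8 highest belonged to Pnrc1, Dyrk2, Chd2 (16711 bases from the gene body, so outside the limit for assignment), Cdk17, Wtap, Sbf2, Abcd3 and Hmgb1. Those of Pnrc1, Dyrk2, Chd2 and Hmgb1 met an H3K4me1 peak in 1 of the 2 livers. Among those with H3K4me1 only, high ranks were found at Klf11, Trim29, Emp1, Tfap2c, Tns1, Tshz2 and Ece1. Those at Klf11, Trim29, Tns1, Tshz2 and Ece1 met an H3K27ac peak in 1 of the 2 livers, and those at Emp1 and Tfap2c in neither. The Klf11 region was 2243 bases wide, with H3K4me1 folds of 18.4 and 18.7. The regions nearest to Trim29, Emp1 and Tfap2c lay 129333, 159574 and 21694 bases from those genes and had no H3K9ac. High ranks in both marks at once were found at Erf, Rab11fip4, Jade1, Mgll, Nfic, Prodh, Slc66a2 and Slc39a7. The region nearest to Rab11fip4 lay 91469 bases from it, outside the limit for assignment, and that at Slc39a7 also reaches H2-Ke6 and Rxrb. Mgll encodes monoacylglycerol lipase, Nfic a nuclear factor I protein and Prodh proline dehydrogenase, and the Nfic region was 24950 bases wide with H3K27ac folds of 26.2 and 40.7.

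Genes of hepatocyte function were nearly all acetylated. Over 21896 protein-coding genes, 49.1% had an H3K27ac region on the gene body or within 1000 bases of it, 40.8% an H3K4me1 region and 29.2% a region with both marks. Of 24 secreted plasma proteins and apolipoproteins, 24 had H3K27ac and 23 a region with both marks, and of 29 genes of coagulation, complement and acute phase, 28 and 26 had them. Rbp4, the carrier of retinol, had folds of 34.7 and 32.0 in a region without H3K4me1, Serpina1a, a protease inhibitor of plasma, 22.2 and 35.6, and Apoe, an apolipoprotein, 21.5 and 28.001 in a region that reaches Tomm40. F5, F2 and Serpinc1, of the clotting cascade and its inhibition, had folds of 27.5 and 33.3, 24.6 and 31.8, and 22.0 and 31.2, and the F5 region also reaches Selp. Saa2 had no region of either mark. Alb, named after its values were seen, had folds of 10.9 and 8.82, below the folds of the genes above in both livers.

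Hepatocyte transcription factors had the strongest regions of the lists. Of 20, 19 had H3K27ac and the same 19 a region with both marks, and Hnf4g had no region of either mark. The median percentile of the strongest region was 97.7, against 84.5 over all acetylated genes. Of the 20, 5 were among the 500 genes of strongest acetylation, out of 10001 genes with an assigned region. The median number of H3K27ac regions per gene was 3 in this list and 1 over all protein-coding genes. More regions give more room for a strong one, and the part of this was not tested. Cebpa had folds of 33.8 and 41.5 in a region of 8322 bases, Foxa2, a forkhead factor, 27.6 and 33.4, and Nr5a2, a nuclear receptor, 30.1 and 31.7. The strongest Nr5a2 region was without H3K4me1, although 18 of its 21 regions had it.

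Genes of the fasting response were acetylated in 24 of 24 cases, 22 with both marks. Irs2, an adaptor of the insulin receptor, had folds of 28.9 and 43.8, Plin5, a protein of lipid droplets, 28.6 and 38.4 in a region that also reaches Plin4, Lrg1 and Sema6b, and Klf15, a factor of fasting gluconeogenesis, 25.3 and 27.7. By bases, 10 of the 24 were among the highest 500, against 3 of the 24 by strength. Each compares with 500 of the 10001 genes with an assigned region. High counts by bases were not particular to this list. They were 6 of 20 hepatocyte transcription factors, 4 of 12 glucocorticoid-responsive genes and 4 of 19 clock genes, but 1 of 24 plasma protein genes. The part of gene length in these counts was not tested. Ppara itself, given because the study deletes it, had 20 regions, all with H3K4me1, on 62.7% of its extended body, with folds of 16.2 and 21.1 at the strongest.

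For fatty acid oxidation and ketogenesis the counts were 31 of 32 with H3K27ac and 26 with both marks. Acsl1, which activates long-chain fatty acids, had folds of 25.5 and 37.4 and 14 regions, each with H3K4me1. The peroxisomal enzymes Acaa1b and Hsd17b4 had 22.0 and 33.8, and 25.5 and 28.8. Etfdh, which passes electrons from the acyl-CoA dehydrogenases to ubiquinone, had no region. Cpt2, also given because it is deleted in the series, had folds of 11.5 and 16.9. Members of this list were common by presence. The median percentile of their strongest region was 89.3, against 84.5 over all acetylated genes. Their median number of H3K27ac regions was 2, against 1 over all protein-coding genes, and the part of this was not tested. Among the 500 strongest was 1 of the 32, beside 500 of the 10001 genes with an assigned region, shares too close to tell apart with 32 genes.

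Other metabolic lists had like counts. Of 12 glucocorticoid-responsive genes, 11 had H3K27ac, led by Nr3c1, the glucocorticoid receptor (27.2 and 43.6), Fkbp5 (26.0 and 29.6) and Zbtb16 (21.1 and 34.4), and Sult1e1 had none. Lipogenesis and cholesterol synthesis had 20 of 22 with H3K27ac and 22 of 22 with H3K4me1. Leading genes included Nr1h3, a sterol-sensing receptor (27.4 and 30.1), and Me1, malic enzyme (20.2 and 42.8). Scd1, the stearoyl-CoA desaturase, had 4 H3K4me1 regions and Pnpla3 had 1, with no H3K27ac region on either gene or within 1000 bases of it. All livers of the series were fasted, so an effect of the fast was not tested. Urea cycle and amino acid breakdown had 26 of 27, led by Prodh (33.9 and 32.9), Aass and Nags, while Gpt had a region of H3K4me1 only. Bile acid synthesis and transport had 14 of 14, led by Abcb4, a phospholipid exporter, Slc27a5 and Baat. The weakest of those 14, named after its values were seen, was Cyp7a1, the rate-limiting enzyme of the classical pathway, with folds of 4.66 and 6.96.

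Xenobiotic metabolism stood lower, with 20 of 23 genes acetylated and 14 with both marks. Gstp1, Ephx1 and Por led that list, and Cyp2b10, Cyp2c37 and Ugt1a1 had no H3K27ac region, although Cyp2b10 had 3 of H3K4me1. Genes of near-identical families such as these can lose reads that map to several copies, and how such reads were handled is not given in the sources used here. Of 19 clock genes, 18 were acetylated, with the nuclear receptors Rora (33.2 and 36.2) and Nr1d2 (25.4 and 35.4) among the strongest. Npas2 had H3K4me1 only. Among 18 housekeeping genes, 16 had H3K27ac and 10 a region with both marks. Of the 18, 2 were among the 500 strongest and 0 among the 500 with the most bases. Beside 500 of the 10001 genes with an assigned region, both counts are too small to tell apart with 18 genes. Their gene bodies were also short, with a median of 5637.5 bases against 17149 over all protein-coding genes. Eef1a1 was among the strongest, with folds of 25 and 31.5, and Rpl13a and Eef2 had H3K4me1 only.

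**Figure D5:**
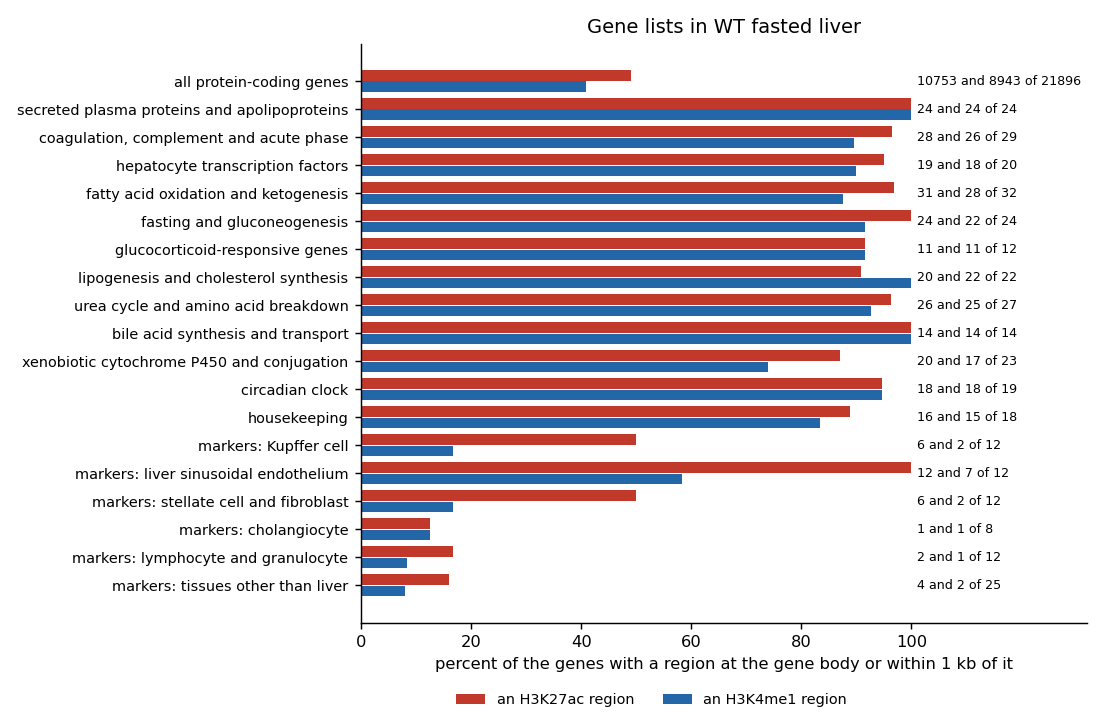
Percent of the genes of each list with an H3K27ac region (red) or an H3K4me1 region (blue) on the gene body or within 1 kb, with counts at the right; the first row is all protein-coding genes. The lists of hepatocyte function lie between 87.0% and 100% for H3K27ac, against 49.1% of all genes, and the markers of cholangiocytes, of lymphocytes and granulocytes and of other tissues between 12.5% and 16.7%. The housekeeping list, with 88.9%, lies within the range of the lists of hepatocyte function.

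Markers of other cells of the liver were examined because whole tissue was used, in which few cells of a type and a weak mark per cell cannot be told apart. Markers of sinusoidal endothelium had H3K27ac in 12 of 12 cases, led by Kdr, the receptor of vascular endothelial growth factor (17.8 and 18.5), Pecam1 and Bmp2, and 6 of the 12 had a region with both marks. Kupffer cell markers had H3K27ac in 6 of 12 cases, 1 of them with H3K4me1 in the region. That one was Cd68, whose region also reaches Mpdu1 and Eif4a1, and Vsig4, Cd5l, Timd4, Adgre1 and Marco had none. Stellate cell and fibroblast markers had 6 of 12, led by Ecm1 (10.7 and 11.8, in a region that also reaches Tars2), Des and Hgf. The 1 of these with both marks was Pdgfra, named after its values were seen. Lrat, Col1a1, Col1a2 and Col3a1 had no region of either mark, and Reln had H3K4me1 only. Acetylation without H3K4me1 in the region was thus the form at 5 of 6 acetylated Kupffer cell markers and 5 of 6 of stellate cells, against 1 of 24 plasma protein genes and 4368 of 10753 genes overall.

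Cholangiocyte markers had 1 of 8, Sox9, with Krt19, Krt7, Epcam, Spp1 and Cftr at none. Lymphocyte and granulocyte markers had 2 of 12, Cd79a (in a region reaching Arhgef1) and Lck. Markers of tissues other than liver had 4 of 25, and the strongest of these, at Sftpc, reaches the neighbouring gene Bmp1. The hepatocyte lists thus stood above the share of all genes, and the cholangiocyte, lymphocyte and other-tissue lists below it. The endothelial list also stood above it for both marks, with 58.3% for H3K4me1 against 40.8% of all genes. So did the housekeeping list, with 88.9% for H3K27ac and 83.3% for H3K4me1. Presence of a region thus did not set hepatocyte genes apart from housekeeping genes.

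WT was set beside the other genotypes for 4 measures of how the marks meet, each computed per library on regions of the same genotype. The share of H3K27ac peaks on H3K4me1 regions was 59.8% and 62.9% in the 2 WT livers. It was 47.5% and 50.1% in Cpt2 L-/-, 53.8% and 56.2% in Ppara -/-, and 53.9% and 53.7% in the double knockout. Both WT values were above all 6 others. Means were 61.4% ± 2.17 (SD, n = 2) and 52.5% ± 3.14 (SD, n = 6), a difference of 8.81 percentage points (two-sided exact permutation test over 28 assignments, p = 0.0714, adjusted p = 0.286). With 2 libraries against 6, 0.0714 is the smallest p the design allows, so a threshold of 0.05 could not be reached. Measured on the peaks of the same-numbered library of the other mark in place of regions in both livers, the difference was 5.83 points (exact permutation p = 0.0714, adjusted p = 0.143). The H3K4me1 regions of WT covered 54.5 Mb, against 46.0, 47.7 and 43.5 Mb in the 3 other genotypes, and the part of this in the difference was not tested.

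The other 3 measures overlapped or nearly so. The share of H3K4me1 peaks on H3K27ac regions was 42.8% and 42.2% in WT and from 37.3% to 50.1% in the others (difference −2.64 points, exact permutation p = 0.571, adjusted p = 0.571). H3K27ac peaks on H3K4me1 were wider than those off it by 261 and 228 bases in WT and by 220 to 327 bases in the others (difference −50.3 bases, exact permutation p = 0.214, adjusted p = 0.286). The share near a gene end was 21.1 and 24.4 points higher off H3K4me1 than on it in the WT livers, and 14.4 to 21.7 points higher in the others (difference 5.12 points, exact permutation p = 0.143, adjusted p = 0.286). Position and width of the classes thus took the same direction in each of the 8 H3K27ac libraries, and none of the 4 differences between WT and the other genotypes passed the threshold.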

How the data were processed

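Chromatin immunoprecipitation was analysed in the 4 WT libraries of H3K27ac and H3K4me1. The authors deposited 1 narrowPeak list per library, aligned with BWA and called with MACS2 2.1.0 on mm10 per the submitters' processing notes. Threshold and duplicate handling are not given in the sources used here. Column 7 of each deposited list is a fold enrichment, a ratio of ChIP signal at the summit over the local background. Columns 8 and 9 were deposited by the authors as −log10 p and −log10 q. Positions were made 1-based. Reads per library are unknown, so no counting interval could be given.

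Regions, classes, percentiles and distances to 21896 RefSeq gene bodies (GRCm38.p6, the assembly named mm10) were computed in Python 3.11.15 with pandas 2.3.3, numpy 2.4.6 and scipy 1.17.1, and the code was tested on simulated peaks. The gene table gives no strand, exon or intron. Gene starts came from a RefSeq promoter table with 17491 of these genes. A region was given to the gene body nearest to its middle, at most 10000 bases away.

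Genes named were the 25 of strongest H3K27ac, the 10 with the most acetylated bases, the 8 strongest regions of each class, and of each gene list the 3 strongest members and up to 5 without a region. A name given outside that rule is marked as such. Some items that the rule names are not reported here. Members and lists were chosen with earlier results of these data known. The same replicate number of the 2 marks was the same animal per the animal number in the peak names, while across genotypes it marked different animals. Comparisons of WT with the other genotypes used two-sided exact permutation tests over libraries, adjusted over 4 tests by the method of Benjamini and Hochberg. Alternatives changed the overlap, the threshold, the extent of a region, the replicates, the windows and the ranking measure. The input samples were not analysed here.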

Additional observations from a re-analysis of the deposited data

How the results depend on the processing

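No result changed direction under an alternative. With an overlap of at least 50% of the shorter interval, 61.0% of H3K27ac and 47.3% of H3K4me1 regions met the other mark, the width difference was 443 bases and the excess near gene ends 31.2 points. With −log10 q of at least 10 the shares were 59.4% and 52.0%, the width difference 613 bases, the percentile difference of H3K4me1 15.8 and the excess near gene ends 29.6 points. With the bases called in both livers they were 61.4% and 44.3%, 210 bases and 16.3 points of percentile for H3K4me1. With any peak of the other mark in either liver they were 74.0% and 61.4%, 442 bases and 31.2 points near gene ends. Counting only summits, an alternative chosen after seeing the data, gave 51.1% and 45.8%. The excess near gene ends was 21.3 points with a window of 5000 bases and 24.3 points from the nearest edge. Of the 25 strongest genes, 0 were kept by the widest region, 2 by total bases and 9 by −log10 q.

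Leaving out a replicate gave 64.4% to 67.5% and 46.5% to 47.2% for the shares, 220 to 255 bases for the width, 2.19 to 5.53 and 20.2 to 20.9 for the percentiles of H3K27ac and H3K4me1, 23.2 to 24.7 points near gene ends, 50.3% to 52.5% of genes with H3K27ac, and 12 to 13 shared genes. The percentile difference of H3K27ac ran from 0.601 to 5.53 over all alternatives and its value of 2.82 is close to the SD of 2.36 between livers. Split by position after seeing the data, it was 3.18 to 7.74 near gene ends and 7.18 to 11.5 away from them over the same alternatives.

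In the comparison of WT with the other genotypes, a replicate block left the differences at 8.81, −2.64, −50.3 and 5.12, with exact permutation p of 0.125, 0.625, 0.250 and 0.125, where 0.125 is the smallest p of its 16 assignments. Replicate numbers mark different animals across genotypes and do not pair them. With the same-numbered library of the other mark they were 5.83, −1.99, −41.1 and 5.35, and with −log10 q of at least 10 they were 8.65, −2.40, −33.7 and 4.61. Without WT replicate 1 or 2 the differences ran from 7.27 to 10.3 points, −2.91 to −2.38 points, −66.8 to −33.8 bases and 3.47 to 6.77 points, and the smallest exact p is then 0.286.

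Depth in reads is unknown, so an absent call is no measure of an absent mark. Regions were required in 2 livers, and 2888 regions with H3K27ac only had an H3K4me1 peak in 1 liver. Percentiles order peaks within a list and carry no level between marks.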
